A study of Mus musculus with 9 samples.

Results

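Broad non-methylated islands (NMIs) are the long tail of the list of non-methylated DNA in C127 cells, a mouse mammary epithelial line. Here they were chosen by width alone, as the NMIs of at least 2500 bp, and 400 of the 13489 NMIs on chromosomes 1 to 19 and X qualified (2.97%). They held 1300981 of the 14224809 bp in all NMIs (9.15%). The series holds 9 samples: 1 BioCAP library with its input, 3 ATAC libraries with 1 input, and 3 of newly made RNA. The NMI list from the single BioCAP library of untreated C127 cells is described here, and the remaining samples were left aside. BioCAP captures sonicated DNA on a resin-bound CXXC domain taken from KDM2B, a domain that recognises CpG only where it is not methylated. There were no replicates, and the list carried no score or read depth, so every comparison below is between intervals of 1 list and not between samples. The study also shows an NMI set larger than the one in this file, so shares of all NMIs and of genes with any NMI refer to the deposited list only. No p-value was computed. The 95% intervals given for shares are exact binomial ones (Clopper-Pearson) and speak to counting error alone, because neighbouring NMIs and genes are not independent replicates.

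Most CpG sites of the mouse genome are methylated, and methylated cytosine is lost over time by mutation, which leaves CpG rare. CpG islands escape methylation, keep their CpG sites and lie at the promoters of most housekeeping genes and many developmental genes. Proteins with a CXXC domain, such as the SET1 complex subunit CFP1 and the Polycomb-linked KDM2B, bind there. Promoters of many developmental regulators are known to have islands that run on into the gene body.

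The sequences below show what such an NMI holds along its length. Each is a stretch of 200 bp without annotated exon sequence, read from the GRCm38 assembly (mm10 coordinates), with every CpG in capitals. The first pair comes from the NMI at Tfap2a, which encodes a transcription factor of neural crest and ectoderm. Its CpG-densest stretch (chr13:40731240-40731439, minus strand, 27 CpG sites) began 3481 bp inside the gene. The last 200 bp at its downstream end (chr13:40727898-40728097, minus strand, 6 CpG sites) began 6823 bp inside. The next pair shows NMI ends on either side of a gene start. The downstream end at Bahcc1, which encodes a BAH-domain protein (chr11:120238057-120238256, plus strand, 9 CpG sites), began 5110 bp inside that gene. The upstream end at Id2, which encodes an inhibitor of bHLH transcription factors (chr12:25101073-25101272, minus strand, 14 CpG sites), began 4132 bp before the gene. The last pair gives the densest stretches of NMIs with no transcription start site (TSS), namely the widest of them, in an intron of Bcor (chrX:12088546-12088745, plus strand, 33 CpG sites), and the one poorest in CpG (chr15:85679208-85679407, plus strand, 12 CpG sites).
Tfap2a, densest: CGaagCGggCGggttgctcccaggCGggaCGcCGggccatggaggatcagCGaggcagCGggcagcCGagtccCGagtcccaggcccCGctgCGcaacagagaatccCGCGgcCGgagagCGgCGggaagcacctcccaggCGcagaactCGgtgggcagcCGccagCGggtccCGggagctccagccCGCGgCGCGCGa
Tfap2a, downstream end: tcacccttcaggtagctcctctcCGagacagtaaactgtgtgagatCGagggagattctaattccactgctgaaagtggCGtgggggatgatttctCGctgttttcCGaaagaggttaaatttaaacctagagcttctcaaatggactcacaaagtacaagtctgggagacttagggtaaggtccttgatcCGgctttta
Bahcc1, downstream end: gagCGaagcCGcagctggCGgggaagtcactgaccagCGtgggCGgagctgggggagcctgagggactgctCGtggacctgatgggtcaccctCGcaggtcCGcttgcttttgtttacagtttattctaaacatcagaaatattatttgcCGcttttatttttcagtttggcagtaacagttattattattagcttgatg
Id2, upstream end: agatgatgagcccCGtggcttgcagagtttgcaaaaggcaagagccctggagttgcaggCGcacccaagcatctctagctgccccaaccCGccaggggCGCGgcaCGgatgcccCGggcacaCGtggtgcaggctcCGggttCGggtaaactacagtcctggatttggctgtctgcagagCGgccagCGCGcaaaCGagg
Bcor intron, densest: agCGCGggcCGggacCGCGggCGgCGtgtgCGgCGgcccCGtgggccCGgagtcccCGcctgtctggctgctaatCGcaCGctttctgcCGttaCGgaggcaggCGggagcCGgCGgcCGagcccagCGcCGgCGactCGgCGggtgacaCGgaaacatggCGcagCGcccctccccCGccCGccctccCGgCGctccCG
Chromosome 15 without a TSS, densest: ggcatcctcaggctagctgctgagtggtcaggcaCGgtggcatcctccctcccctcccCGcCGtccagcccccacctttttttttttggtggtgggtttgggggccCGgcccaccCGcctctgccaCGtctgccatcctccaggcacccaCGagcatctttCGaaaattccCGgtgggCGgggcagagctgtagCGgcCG

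The widths set the members and are given as a description. They ran from 2502 to 11019 bp with a median of 2960 bp and quartiles at 2652 and 3508 bp. A width of 3000 bp was reached by 189 NMIs, 4000 bp by 51 and 5000 bp by 18. Just inside the limit lay the NMIs at Msl2 (2502 bp), Igfbp4 (2505 bp) and Myh9 (2506 bp). Just outside lay those at Gfod1 (2499 bp), at the shared promoter of Enoph1 and Hnrnpdl (2496 bp) and at Ppp3ca (2495 bp). The limit therefore cuts a continuous range of widths.

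Nearly all broad NMIs lay at gene starts. A TSS, meaning the 5′ end of any GENCODE M21 transcript, lay in 385 of 400 (96.2%, interval 93.9 to 97.9%), and a TSS of a protein-coding gene lay in 377 (94.2%, 91.5 to 96.3%). Among the 13089 narrower NMIs the share with a TSS was 72.6% (71.8 to 73.4%). The difference came with the narrowest NMIs, since the share was 51.4% under 1000 bp, 95.5% (94.9 to 96.0%) from 1000 bp to under 2000 bp and 97.9% (96.4 to 98.9%) from 2000 to 2499 bp. Broad NMIs thus held a TSS no more often than NMIs of 2000 to 2499 bp. TSSs of 1 protein-coding gene lay in 325 broad NMIs, of 2 genes in 49 and of 3 genes in 3, while 8 held TSSs of other genes only and 15 held none.

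In all, 431 protein-coding genes had a TSS in a broad NMI. They were 4.13% of the 10425 protein-coding genes with any NMI at a TSS and 1.98% of all 21755 protein-coding genes. The first of these shares is the background against which each gene list was read. Of 45 lists of gene families and pathways, 37 had a member in a broad NMI, 32 lay above 4.13% and 8 had none. In a short list 1 broad member is enough to exceed 4.13%, so a place above it does not by itself set a list apart. At least 1 list took in 163 of the 431 genes. A sorting of the 431 genes by known function, written after their names were seen, placed 252 (58.5%). In that sorting 88 genes encoded DNA-binding transcription factors (20.4% of the 431), 40 chromatin proteins, 35 RNA-binding or RNA-processing proteins, 27 transcription cofactors or inhibitors of transcription factors, 15 ligands, 14 cell surface receptors and 14 inhibitors of signalling pathways. Only the members were sorted in this way, so the counts describe them alone and have no background share of the same classes over all genes.

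**Figure D1:**
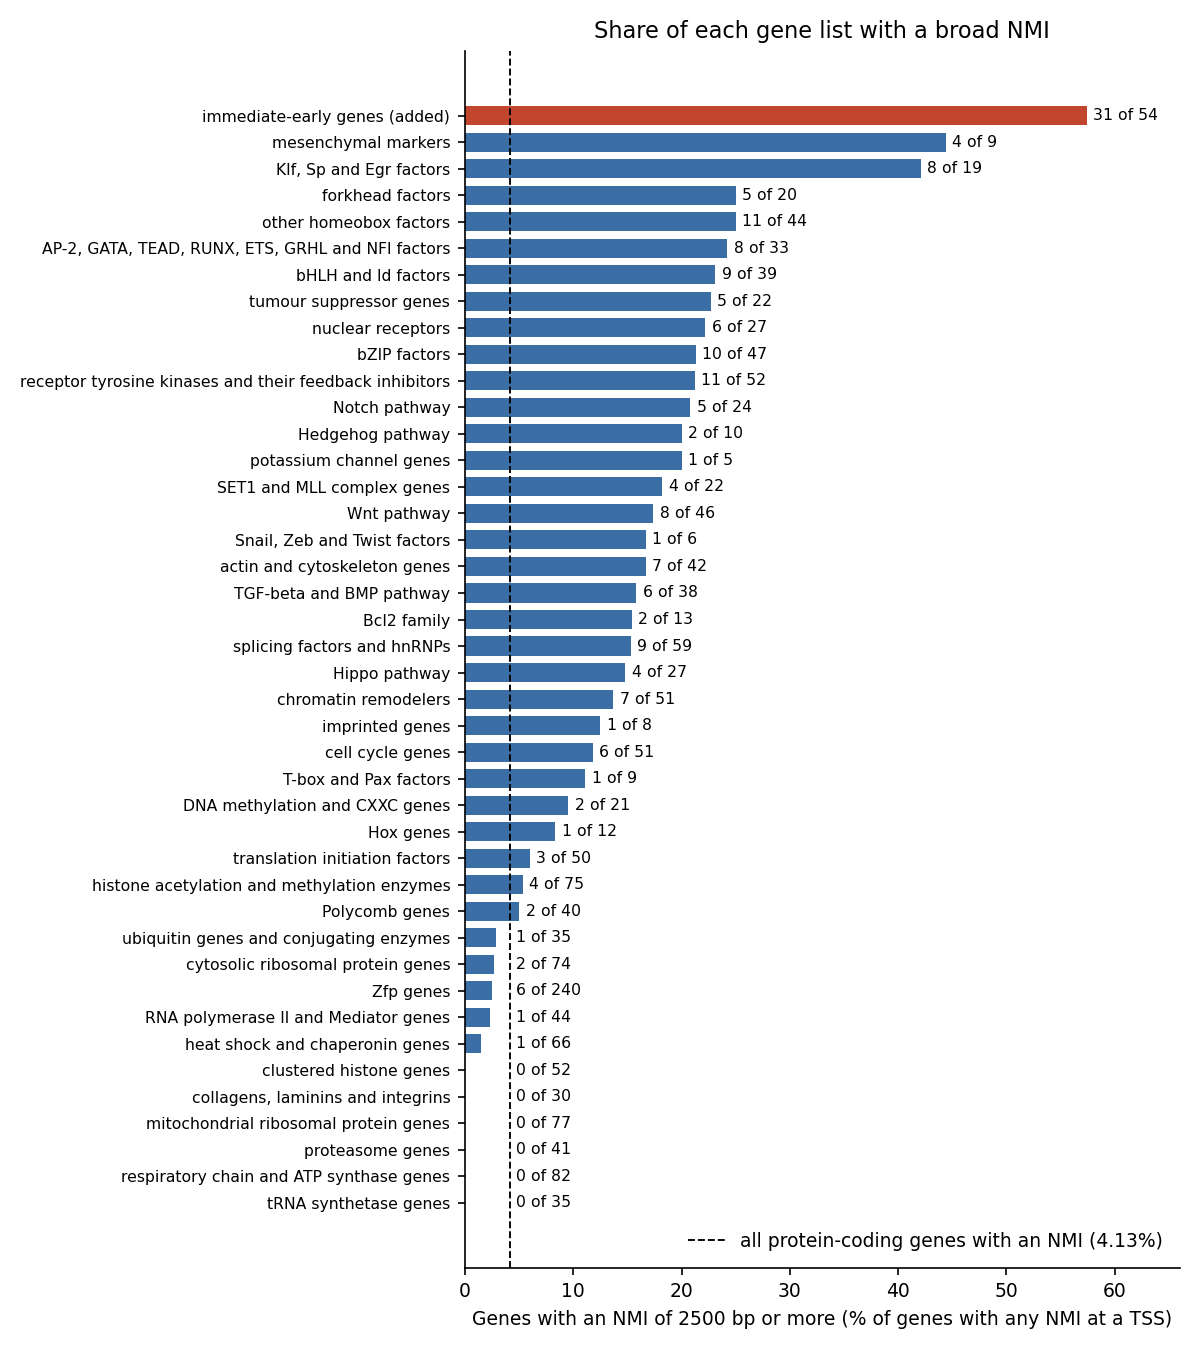
Share of genes with a broad NMI, as a percentage of the genes of each list with any NMI at a TSS, for lists with at least 5 such genes, 1 list not reported here left out. The numbers beside the bars are the genes behind each share, the dashed line is the 4.13% of all protein-coding genes with an NMI, and the red bar is the list of immediate-early genes (31 of 54), which was written after the members were seen.

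The plot of gene lists was ordered by that share. At its top stood the immediate-early list and the mesenchymal markers (4 of 9), followed by lists of transcription factors. Sox factors, which specify many progenitor cells, had too few genes with an NMI to be plotted. Of the 4 with any NMI, 3 had a broad one, namely Sox9 (4574 bp), Sox4 (3762 bp) and Sox12 (2946 bp). The Klf, Sp and Egr zinc-finger factors, which bind GC-rich promoters, had 8 of 19 (42.1%), led by Egr3 (3774 bp), Klf13 (3730 bp), Klf7 (3389 bp) and Klf10 (3275 bp). Forkhead factors had 5 of 20 (25.0%), with Foxp1 (3453 bp), Foxo3 (3331 bp) and Foxc1 (3326 bp) the widest. Homeobox factors outside the Hox clusters had 11 of 44 (25.0%), and 4 of the 11 were Iroquois genes, which pattern many embryonic tissues: Irx5 (5832 bp), Irx2 (5126 bp), Irx1 (2959 bp) and Irx3 (2713 bp). The Hox genes themselves, which set position along the body axis, had 1 of 12, Hoxc11 (2903 bp).

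Other transcription factor families lay between these. The list of AP-2, GATA, TEAD, RUNX, ETS, GRHL and NFI factors had 8 of 33 (24.2%), led by Gata3 (7934 bp), a factor of the luminal mammary lineage, Tfap2a (7153 bp), Runx2 (5045 bp), a regulator of bone formation, and Erf (4096 bp), an ETS repressor. The bHLH and Id factors had 9 of 39 (23.1%), among them Id2 (6116 bp), Myc (5180 bp), the Notch target Hes1 (4795 bp) and Mxi1 (4478 bp), a Max partner that opposes Myc. Nuclear receptors had 6 of 27 (22.2%), led by Nr2f2 (3913 bp), Nr4a2 (3550 bp) and the glucocorticoid receptor Nr3c1 (3095 bp). The bZIP factors, which include the AP-1 subunits, had 10 of 47 (21.3%), led by Junb (4912 bp), Nfil3 (4743 bp) and Fosl2 (4379 bp). Zinc-finger genes with Zfp symbols, many of which encode KRAB repressors, stood on the other side of the background with 6 of 240 (2.50%). The widest of the 6 were at Zfp503 (10585 bp) and at Zfp710 (3668 bp).

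Some broad NMIs lay at genes that are switched on within minutes of a growth signal. An immediate-early list was written after the members had been seen, so its share is a description only. Of its 54 genes with an NMI, 31 (57.4%) had a broad one. They included Id2, Gadd45b (5328 bp) and Gadd45g (4933 bp), which encode stress sensors, Myc, Junb, Zfp36l1 (4791 bp), which encodes an mRNA decay factor, and Ccn1 (4360 bp), a matricellular protein. The AP-1 genes Jun (3618 bp), Fosb (3035 bp), Jund (2599 bp) and Fos (2509 bp) were also members. Other immediate-early genes fell below the limit, such as Klf6 (2472 bp), Egr1 (1491 bp), Atf3 (1102 bp) and Arc (713 bp).

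Signalling lists above the background held receptors, feedback inhibitors and pathway repressors. Receptor tyrosine kinases and their inhibitors had 11 of 52 (21.2%). The receptors were Igf1r (3987 bp), Fgfr2 (3266 bp), Ephb2 (3048 bp), Epha4 (2982 bp), Fgfr1 (2552 bp) and Pdgfra (2538 bp). The inhibitors of the same cascade were Spry2 (4441 bp), the phosphatases Dusp4 (3930 bp) and Dusp6 (3681 bp), Spred1 (3430 bp) and Spred2 (2567 bp). The NMI counted for Fgfr2 was shared with Ctbp2 on the same strand, with 5′-most TSSs 1004 bp apart. Which of these genes it serves as a promoter was not tested. In the TGF-beta and BMP list, with 6 of 38 (15.8%), the 3 widest were at inhibitors of the pathway, Tgif1 (6494 bp), Smad7 (5049 bp) and Smad6 (3578 bp). The other 3 were the ligands Tgfb1 (3083 bp) and Bmp4 (2779 bp) and the receptor Bmpr2 (2667 bp). Inhibitors were not always broad, since Skil (2480 bp), Ski (2389 bp) and Smurf2 (2190 bp) lay below the limit, as did the signal-carrying Smad1 (1831 bp), Smad2 (1744 bp) and Smad4 (1576 bp).

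Notch pathway genes had 5 of 24 (20.8%), with the ligand Jag1 (3510 bp), the coactivator Maml3 (3960 bp), the DNA-binding protein Rbpj (3134 bp) and the target Hes1. Wnt pathway genes had 8 of 46 (17.4%), among them the corepressors Tle3 (4298 bp) and Tle1 (3002 bp), the effector Tcf7l2 (3522 bp) and the ligand Wnt5a (3412 bp). The Hedgehog list gave 2 of 10, the receptor Ptch1 (3776 bp) and the coreceptor Gas1 (3561 bp). The Hippo list gave 4 of 27 (14.8%), led by the atypical cadherin Fat1 (4235 bp). Tumour suppressor genes had 5 of 22 (22.7%), Ptch1, Trp53 (3626 bp), Stk11 (2982 bp) and Brca1 (2526 bp) among them. Cell cycle genes had 6 of 51 (11.8%), with the G1 cyclin gene Ccnd1 (4886 bp) the widest. The Bcl2 family gave Bbc3 (3803 bp) and Bcl2l11 (2733 bp), both activators of apoptosis, among 13 genes.

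The lists of chromatin regulators differed in their distance from the background. Genes of the SET1 and MLL complexes, which methylate histone H3 at lysine 4, had 4 of 22 (18.2%): Setd1b (6776 bp), Kmt2c (2996 bp), Kmt2a (2732 bp) and Hcfc1 (2681 bp). The other SET1 catalytic subunit, Setd1a, had an NMI of 2053 bp, and Cxxc1, which encodes CFP1, one of 1020 bp. Chromatin remodelers had 7 of 51 (13.7%), of which Arid2 (4824 bp), Smarca2 (4032 bp), Arid1b (3520 bp) and Arid1a (2819 bp) encode SWI/SNF subunits. Polycomb genes had 2 of 40 (5.00%) and the list of histone acetylation and methylation enzymes had 4 of 75 (5.33%). Both shares lay near the background of 4.13% and do not set these lists apart.

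Lists of structural genes and of basic cell functions lay on both sides of the background. Splicing factors and hnRNPs, which bind nascent RNA, had 9 of 59 (15.3%), with Hnrnpl (3477 bp), U2af2 (2864 bp) and Hnrnpa2b1 (2836 bp) the widest. Actin and cytoskeleton genes had 7 of 42 (16.7%), led by Marcks (5541 bp), an actin-binding kinase substrate, Pfn1 (3702 bp), Actg1 (3253 bp) and Tpm1 (2883 bp). Cytosolic ribosomal protein genes had 2 of 74 (2.70%), ubiquitin genes and conjugating enzymes 1 of 35 (2.86%), RNA polymerase II and Mediator genes 1 of 44 (2.27%), and heat shock and chaperonin genes 1 of 66 (1.52%). No broad NMI was found at any of 82 genes of the respiratory chain and ATP synthase, 77 mitochondrial ribosomal protein genes, 52 clustered histone genes, 41 proteasome genes, 35 tRNA synthetase genes or 30 genes of collagens, laminins and integrins. The median width of the NMIs in these last 6 lists lay between 958 bp for mitochondrial ribosomal proteins and 1704 bp for clustered histones. At the background of 4.13%, few broad members fall to lists of 30 to 44 genes. A count of 0 or 1 in such a list lies near the background and does not set it apart. The same holds for the clustered histone, heat shock and chaperonin, and cytosolic ribosomal protein genes, with 0 of 52, 1 of 66 and 2 of 74. Of 1093 olfactory receptor genes none had an NMI of any width.

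The cells are labelled as mammary epithelial, and the marker genes were looked up in the list. Of 14 epithelial markers 2 had an NMI and neither was broad, Itga6 (1605 bp) and Tjp1 (1360 bp). Of 12 mesenchymal markers 9 had an NMI and 4 of these were broad: Vim (2719 bp), Zeb2 (2763 bp), Pdgfra and Cdh2 (3054 bp). Cdh1, Epcam, Krt8 and Krt18, which define epithelium, had no NMI in the list. An NMI is not a measurement of expression, and no cell type was drawn from these counts. Smaller lists gave Gnas (4520 bp) as 1 of 8 imprinted genes, Tbx3 (3060 bp) as 1 of 9 T-box and Pax factors, Kcnn1 (3160 bp) as 1 of 5 potassium channel genes and Zeb2 as 1 of 6 Snail, Zeb and Twist factors. In lists of 5 to 9 genes 1 broad member is enough to exceed 4.13%, so these counts do not set the lists apart. DNA methylation and CXXC genes gave 2 of 21, Kmt2a and Fbxl19 (2555 bp). Translation initiation factors gave 3 of 50, led by Eif3b (2858 bp).

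The second question was how far the NMIs reach into genes. For the 325 broad NMIs with TSSs of 1 protein-coding gene, reach was measured from the 5′-most TSS of the gene inside the NMI. The median reach was 2065 bp downstream, into the gene (quartiles 1618 and 2554 bp), and 976 bp upstream (quartiles 544 and 1517 bp). A median of 68.2% of the NMI lay downstream, and the downstream side was the longer in 259 of 325 (79.7%, interval 74.9 to 83.9%). Both sides together make up the width, which chose the members, so the lengths are descriptions, but the division between them was not chosen. In the 8035 narrower NMIs with TSSs of 1 gene, the medians were 736 bp downstream and 334 bp upstream. Their median downstream share was 68.1%, and their downstream side was the longer in 86.2% (85.4 to 86.9%). In the 471 of 2000 to 2499 bp the median downstream share was also 68.1%.

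**Figure D2:**
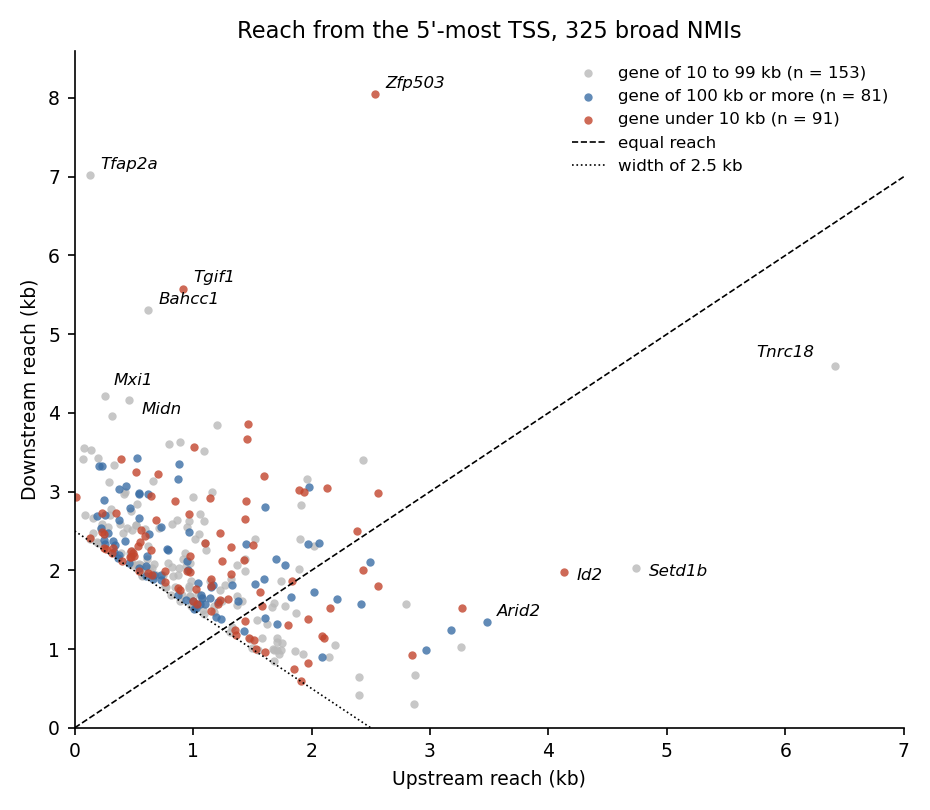
Downstream against upstream reach in kb for the 325 broad NMIs with TSSs of 1 protein-coding gene, coloured by gene length. Points above the dashed line (259 of 325) reached farther into the gene than away from it, and no point can lie under the dotted line, which marks the limit of 2500 bp.

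The division depends on which TSS is taken. Most of the genes had several TSSs inside the NMI, and these lay at least 1000 bp apart in 109 of 325 (33.5%, 28.4 to 39.0%), against 16.6% (13.3 to 20.2%) at 2000 to 2499 bp and 2.22% in all narrower NMIs. Counted from the 3′-most TSS, the median downstream share of broad NMIs was 43.6%, and the downstream side was the longer in 132 of 325 (40.6%, 35.2 to 46.2%), so that the longer side changed. For narrower NMIs the share from that TSS was 53.5%. The 71 broad NMIs with a single TSS of the gene do not depend on this choice. There the median downstream share was 61.9% and the downstream side was the longer in 54 (76.1%, 64.5 to 85.4%), beside 64.9% and 77.5% (75.4 to 79.4%) in 1701 narrower NMIs with a single TSS.

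**Figure D3:**
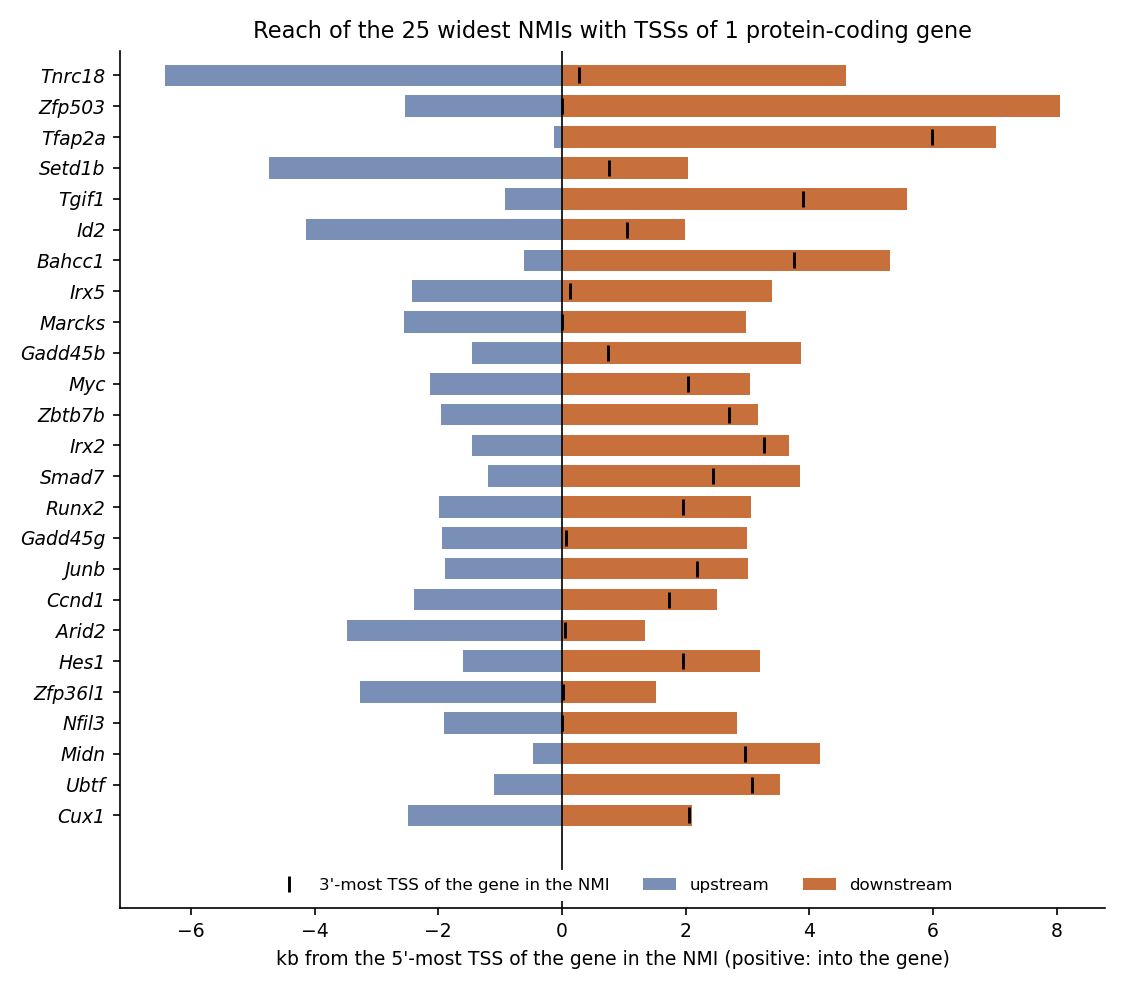
Upstream and downstream reach in kb from the 5′-most TSS of the gene, for the 25 widest NMIs with TSSs of 1 protein-coding gene, with the 3′-most TSS marked in black. Tnrc18 reached 6420 bp upstream, Zfp503 reached 8052 bp downstream, and Tfap2a lay almost wholly downstream with TSSs spread over 5976 bp.

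Individual NMIs took very different shapes, as the bars of the 25 widest show. The longest downstream reach was at Zfp503, a zinc-finger corepressor gene of 5643 bp, where the NMI ran 8052 bp from the TSS and therefore past the end of the gene. Tfap2a followed with 7022 bp downstream and only 130 bp upstream, and its 8 TSSs were spread over 5976 bp of the NMI. Tgif1, a homeobox corepressor, reached 5578 bp downstream with 9 TSSs over 3902 bp. Bahcc1 reached 5309 bp downstream with TSSs 3752 bp apart. Tnrc18 was long on both sides, with 4598 bp downstream and 6420 bp upstream. Apart from Zfp503 and Tnrc18, these genes had TSSs strung along most of the downstream side.

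The longest upstream reach was at Tnrc18, followed by Setd1b (4740 bp), Id2 (4132 bp), Arid2 (3480 bp) and Zfp36l1 (3267 bp). In the latter 4 the downstream side was the shorter, between 1343 bp at Arid2 and 2035 bp at Setd1b. The NMI at Setd1b held 10 TSSs, of which 2 belonged to Setd1b and the others to genes that are not protein-coding. In all, 33 of 325 broad NMIs reached at least 2000 bp upstream and 177 at least 2000 bp downstream. At the extremes of the division, 35 NMIs (10.8%) lay at least 90% downstream, such as Tfap2a (98.2%), and Hnrnpl (98.1%). The lowest downstream share was 9.40% at Kcnn1, which encodes a calcium-activated potassium channel.

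Reach was then set against the parts of the gene, on the transcript that starts at the 5′-most TSS. The first exon was covered to its end in 304 of 325 (93.5%), about as often as in narrower NMIs (93.0%). The second exon was reached in 109 of 308 transcripts with more than 1 exon (35.4%, 30.1 to 41.0%), against 21.0% (17.3 to 25.0%) at 2000 to 2499 bp and 13.9% (13.1 to 14.7%) in all narrower NMIs. Reach grows with width, so this order, like that of the TSS spreads, is not independent of the rule that chose the members. The first exons were also longer, with a median of 343 bp against 218 bp, but the median was 349 bp at 2000 to 2499 bp. The coding start lay in the NMI in 214 of the 292 transcripts with a coding sequence (73.3%, 67.8 to 78.3%), against 65.2% in all narrower NMIs and 68.1% (63.5 to 72.5%) at 2000 to 2499 bp, whose interval overlaps that of the broad NMIs.

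Some genes had their entire coding sequence in non-methylated DNA. Taking the longest coding sequence of each gene, whichever TSS its transcript uses, 29 of 325 (8.92%, 6.06 to 12.6%) lay wholly inside the broad NMI and 68 (20.9%, 16.6 to 25.8%) at least 50% inside. These counts also grow with width, and in the NMIs of 2000 to 2499 bp the shares were 3.61% (2.12 to 5.72%) and 7.01% (4.87 to 9.70%). The 29 included Sox9 (1521 bp of coding sequence), Sox4 (1320 bp) and Sox12 (942 bp), the forkhead gene Foxc1 (1659 bp), and the Notch effector Hes1 (846 bp). They also included the inhibitors of bHLH factors Id1 (504 bp), Id2 (465 bp) and Id3 (357 bp) and the AP-1 genes Jun (1002 bp), Junb (1032 bp) and Jund (1023 bp). Others were Cdkn1b (591 bp), an inhibitor of cyclin-dependent kinases, Cited2 (807 bp), a coactivator-binding protein, Hexim1 (1068 bp), an inhibitor of transcription elongation, and Marcks (927 bp). Among the Iroquois genes the inside share was 92.9% for Irx5, 96.5% for Irx2, 90.4% for Irx3 and 80.8% for Irx1.

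In 7 cases the whole gene lay inside the NMI (2.15%, 0.870 to 4.39%). These genes were Zfp503 (5643 bp), Gadd45b (2132 bp), Pcbp1 (1830 bp), which encodes an RNA-binding protein, Gadd45g (1791 bp), Jund (1668 bp), Ier2 (1522 bp) and Id1 (1160 bp). At Gadd45b the NMI reached 1462 bp upstream and 3865 bp downstream of the TSS. At Pcbp1 it reached 1225 bp upstream and 2479 bp downstream.

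Both short and long genes were more frequent among the members than among genes with narrower NMIs. Genes under 10 kb made up 91 of 325 (28.0%, 23.2 to 33.2%), against 19.7% (18.8 to 20.6%) in all narrower NMIs and 17.4% (14.1 to 21.1%) at 2000 to 2499 bp. Genes of 100 kb or more made up 81 (24.9%, 20.3 to 30.0%), against 14.3% (13.6 to 15.1%) in all narrower NMIs, but 23.4% (19.6 to 27.4%) at 2000 to 2499 bp. The short genes thus set the members apart from the NMIs nearest in width, and the long genes did not. Gene length also varied between functional groups, which were put together after the members had been seen. Over all 325 members the median share of the gene inside the NMI was 6.70%. The whole longest coding sequence lay inside in 29 of the 325, and at least 50% of it in 68. Of the 29 immediate-early genes with a measured reach, 23 were under 10 kb (91 of 325 over all members), the median share of the gene inside the NMI was 58.5%, and 12 had the whole longest coding sequence inside. Of the 38 chromatin genes of the sorting with a measured reach, 15 were of 100 kb or more, the median share of the gene inside the NMI was 2.70%, and none had 50% of its longest coding sequence inside. The 13 cell surface receptor genes with a measured reach had 7 of 100 kb or more and a median of 1.90% of the gene inside. The median downstream reach was similar in these groups, at 2176 bp for immediate-early genes, 2052 bp for chromatin genes and 2065 bp for receptors.

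CpG density was as high in broad NMIs as in narrower ones. Among NMIs with a TSS, the median was 6.78 CpG per 100 bp in broad NMIs (quartiles 5.71 and 8.00) and 6.85 in narrower ones (quartiles 5.61 and 8.28). The median ratio of observed to expected CpG was 0.751 against 0.761, and the GC content 60.5% against 60.7%. The number of CpG sites per NMI therefore scaled with width, with a median of 216 against 78. The median share of bases marked as repeats was 9.65%, above the 5.62% of narrower NMIs. With or without a TSS, median density was 6.98 CpG per 100 bp in NMIs of at least 2000 bp. It was 6.73 at 2500 bp or more and 6.61 at 3000 bp or more, so the median fell as the limit rose.

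**Figure D4:**
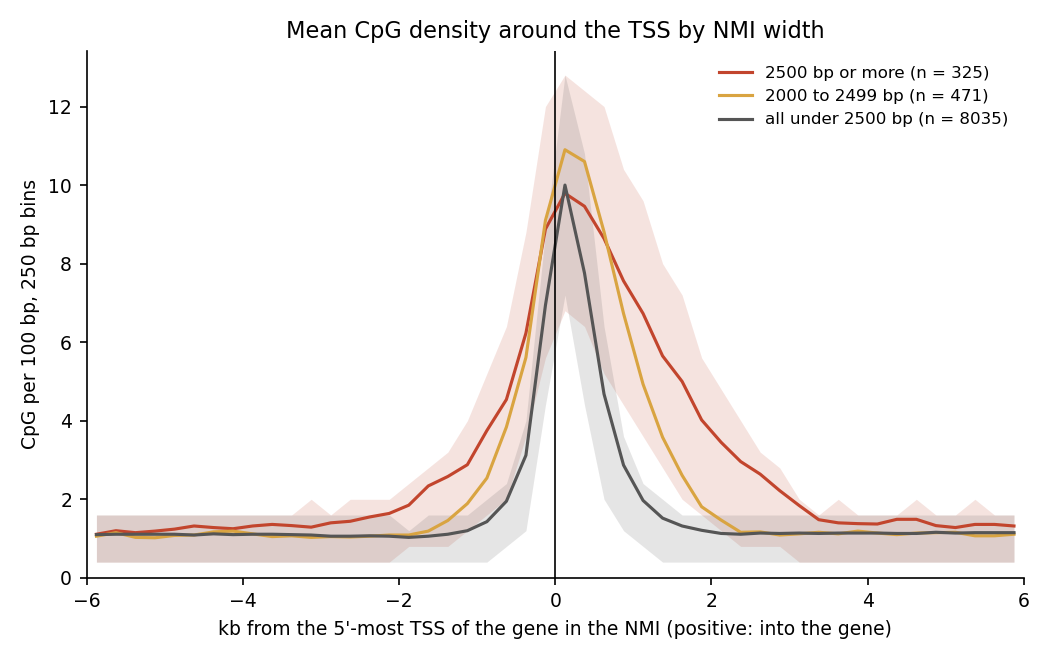
Mean CpG per 100 bp in bins of 250 bp around the 5′-most TSS of the gene, for broad NMIs (n = 325), NMIs of 2000 to 2499 bp (n = 471) and all NMIs under 2500 bp (n = 8035), with shading from the lower to the upper quartile for the first and last. The peaks just after the TSS were alike at 9.79 and 10.0 for broad and all narrower NMIs, and the curve of broad NMIs fell more slowly on both sides.

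Around the TSS, the density of CpG in the reference sequence had a peak of similar height but a longer shoulder in broad NMIs. In the first 250 bp after the TSS the mean was 9.79 CpG per 100 bp for broad NMIs, 10.9 for NMIs of 2000 to 2499 bp and 10.0 for all narrower NMIs. From 1000 to 1250 bp into the gene it was 6.73 for broad NMIs, 4.93 at 2000 to 2499 bp and 1.97 for all narrower NMIs. From 2000 to 2250 bp it was 3.45, 1.47 and 1.13. The shoulder runs beside the width that chose the members and is a description. On the upstream side, from 1000 to 1250 bp before the TSS, it was 2.88, 1.89 and 1.20. Within broad NMIs the downstream side was the denser, with a median of 7.29 CpG per 100 bp against 6.52 upstream, and it was the denser in 204 of 301 NMIs with at least 250 bp on each side (67.8%, 62.2 to 73.0%). The middle of the densest 500 bp lay downstream of the TSS in 258 of 325 (79.4%), at a median of 298 bp. Both comparisons are counted from the 5′-most TSS, so any other TSS of the gene in the NMI falls on the downstream side. Neither was measured from the 3′-most TSS or in narrower NMIs, so they are not shown to be particular to broad ones.

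The called ends fell where CpG density dropped. In the last 250 bp inside the NMI the median was 4.00 CpG per 100 bp at the upstream end and 3.60 at the downstream end, and in the next 250 bp outside it was 1.60 at either. The inside was the denser in 291 of 325 upstream ends (89.5%) and 284 of 325 downstream ends (87.4%). BioCAP captures DNA through its non-methylated CpG sites, so this contrast is not independent of how the NMIs were found. Where methylation begins was not tested. The ends of narrower NMIs gave the same 1.60 outside, with 4.80 and 4.00 inside. The Id2 and Bahcc1 ends printed above, with 14 and 9 CpG sites in 200 bp, were denser than these medians, and the Tfap2a end, with 6, was less dense.

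CpG islands predicted from sequence matched the broad NMIs only in part. Islands were taken as unions of 500 bp windows whose GC content reached 55% and whose observed to expected ratio reached 0.65. A median of 78.4% of a broad NMI with a TSS lay in such islands, against 95% of narrower NMIs. The longest island overlapping a broad NMI, counted at its full length, had a median of 2157 bp. At least 2 separate islands overlapped 130 of 385 broad NMIs with a TSS (33.8%, 29.1 to 38.7%), against 1.08% of narrower ones, and 20 overlapped at least 3. Each island spans at least 500 bp, so a wider NMI has room for more of them. The contrast is therefore not independent of the rule that chose the members. The NMIs at Tnrc18 and Zfp503 overlapped 5 each, and those at Tfap2a, Tgif1, Gata3 and Ccnd1 overlapped 4 each. In the other direction, of 340 predicted islands of at least 2500 bp with a TSS of a protein-coding gene, 126 (37.1%, 31.9 to 42.4%) overlapped a broad NMI and 224 (65.9%, 60.6 to 70.9%) overlapped an NMI of any width. Of the 400 broad NMIs, 130 (32.5%) overlapped a predicted island of that length. A long predicted island was thus neither needed for a broad NMI nor always accompanied by one.

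Some members were promoters shared by several genes. Of the 49 with 2 protein-coding genes, 30 were divergent pairs, 16 had the genes on opposite strands with overlapping 5′ parts, and 3 had both on the same strand. Among narrower NMIs with 2 genes the counts were 644, 369 and 110. The widest with 2 genes held Brd2, which encodes a reader of acetylated histones, and H2-DMa, an antigen presentation gene (5399 bp), whose 5′-most TSSs lay 3093 bp apart. It was followed by Tshz1 and Zadh2 (4696 bp), with divergent starts 357 bp apart and 2786 bp on the Tshz1 side. In the NMI of Trp53 and Wrap53 (3626 bp) the starts were 104 bp apart and the NMI ran 1714 bp into Trp53 and 1807 bp into Wrap53. The 3 NMIs with 3 genes were those of Gata3 with 2 genes known by clone names (7934 bp), of Bet1l, Ric8a and Gm45785 (2702 bp), and of Pfkfb2, Yod1 and Gm29427 (2666 bp).

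Broad NMIs without a TSS were few, and most of them lay outside protein-coding genes. Of the 15, 6 lay within a protein-coding gene, 1 lay within 1000 bp of a TSS and 4 lay over 10 kb from any TSS. The widest (5151 bp, chromosome X, 12086935 to 12092085) lay in an intron of Bcor, which encodes a Polycomb-linked corepressor, 6382 bp from the nearest TSS. It lay wholly in 1 predicted island and had 7.84 CpG per 100 bp. A second NMI in Bcor (2769 bp, chromosome X, 12133302 to 12136070) overlapped an exon. Near the histone demethylase gene Kdm6b lay one NMI inside the gene (3594 bp, chromosome 11, 69408529 to 69412122) and one 3661 bp from its TSS (3282 bp, chromosome 11, 69417336 to 69420617). The NMI at the remodeler gene Chd3 (3207 bp, chromosome 11, 69366179 to 69369385) ended 6 bp from a TSS of that gene and held 250 bp of its coding sequence, so that it missed the class of NMIs with a TSS by a few bases.

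Introns of Nfix (3269 bp, chromosome 8, 84783751 to 84787019), which encodes a nuclear factor I protein, and of Nrp2 (2737 bp, chromosome 1, 62704895 to 62707631), a semaphorin receptor, held the other members inside genes. A pair on chromosome 15, in a region 54910 to 62622 bp from the TSS of Ppara, differed widely in sequence. The NMI at 85669539 to 85672361 (2823 bp) had 9.85 CpG per 100 bp, and the NMI at 85677245 to 85680073 (2829 bp) had 2.40, the lowest of all 400, and no predicted island. The remaining members without a TSS lay outside protein-coding genes, on chromosome 3 (3382 bp, 96499419 to 96502800), chromosome 1 (3326 bp, 86440013 to 86443338), chromosome 2 (3187 bp, 122375054 to 122378240), chromosome 10 (2930 bp, 80158533 to 80161462), chromosome 19 (2646 bp, 12009933 to 12012578) and chromosome 14 (2641 bp, 51063374 to 51066014). Those on chromosomes 3, 2, 19 and 14 had the lowest GC contents of the 15, between 45.5% and 47.5%.

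The 8 NMIs with TSSs of other genes only were led by Zswim6 (4088 bp), annotated in this release as a processed transcript, and by the long non-coding RNA genes Lncpint (3110 bp) and Lockd (2648 bp), the latter 6203 bp from the TSS of Cdkn1b. The microRNA gene Mir193a (2616 bp) and the non-coding gene Dleu2 (2544 bp) were also among them.

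Broad NMIs were found on all chromosomes analysed, from 1.75% of the NMIs of chromosome 16 to 3.86% of those of chromosome 13, and 7 of 276 (2.54%) on X. The gap to the next NMI had a median of 22970 bp, against 26571 bp for narrower NMIs. Another NMI lay within 1000 bp of 26 broad NMIs (6.50%, 4.29 to 9.38%), against 2.95% of narrower ones. No gap in the list was shorter than 464 bp, and such a gap lay beside some of the widest members, with 554 bp at Bahcc1, 580 bp at Hes1, 666 bp at Tfap2a and 680 bp at Irx5. Whether these gaps are methylated or only fell below the calling threshold was not tested.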

How the data were processed

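Non-methylated DNA of C127 cells was captured by BioCAP in 1 library. Reads were aligned by the authors with Bowtie2 against mm10, and only uniquely placed reads were kept. After SAMtools had taken out duplicates, NMIs were called with MACS (MACS2 in the submitters' processing notes). Tool versions were not given in the sources used here, and the role of the input in the calling is not stated. The positions deposited by the authors are a chromosome, a start and an end per NMI, with no score, so depth is unknown and no stricter peak threshold could be applied. Discarding reads without a unique position can shorten or split NMIs at repeats and gene copies, and the joining of nearby enriched stretches by the caller sets the widths.

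Starts were counted from 0 in the deposited list and are given counted from 1. Members were the NMIs of at least 2500 bp on chromosomes 1 to 19 and X, which held 13489 of the 13491 NMIs in the list. TSSs were the 5′ ends of all GENCODE M21 transcripts, exons and coding sequences came from the same release, and sequence came from the RefSeq GRCm38.p6 genome. The described transcript starts at the 5′-most TSS in the NMI, coding first, then longest. Lower-case reference bases were counted as repeats. Analysis used Python 3.11.15, NumPy 2.4.6, SciPy 1.17.1 and matplotlib 3.10.9, and was tested on simulated intervals with known answers. The members and the gene lists were chosen with earlier results of these data known, and the immediate-early list and the sorting by function after the members had been seen.

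Genes were named by rule: those of the 25 widest NMIs with a protein-coding TSS, NMIs without a TSS, the 5 NMIs with most genes, the 5 longest reaches on each side, genes wholly inside an NMI, up to 4 widest members per list, and the 3 NMIs on each side of the limit. Further genes in the text complete a group or family and were chosen after their values were seen. Some of the genes so named, and 1 gene list, are not reported here. Alternatives were other widths, merging, other TSS sets and anchors, and the middle of each NMI.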

Additional observations from a re-analysis of the deposited data

How the results depend on the processing

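No paired analysis was possible because a single BioCAP list was used and no result came from a test. The limit of 2500 bp set the counts. With at least 2000 bp there were 1020 NMIs and 1156 genes, a median reach of 788 bp upstream and 1672 bp downstream, 26.8% reaching the second exon, 6.98 CpG per 100 bp and an observed to expected ratio of 0.771. With at least 3000 bp there were 189 NMIs and 204 genes, with 1201 bp upstream and 2486 bp downstream. From the 3′-most TSS the medians were 1723 bp upstream, 1313 bp downstream and 43.6% downstream. The middle 2500 bp of each NMI had 7.16 CpG per 100 bp and a ratio of 0.765, against 6.73 and 0.750 over whole NMIs. Merging NMIs at most 250 bp apart could change nothing, since the closest were 464 bp apart. Merging at most 1000 bp apart, an alternative chosen after seeing the data, gave 474 NMIs and 524 genes, with 6.42 CpG per 100 bp and a ratio of 0.732. Basic transcripts, the outermost TSS, and TSSs within 250 bp of the NMI left the results they bear on within their intervals or, for counts, within 1.5 times. A stricter threshold could not be applied without a score, and no replicate could be left out. Weakly captured islands may be missing or cut short in a list of unknown depth.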
